A study of Komagataella phaffii CBS 7435 with 16 samples.

Results

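The transcriptome of low-oxygen chemostat cultures of Komagataella phaffii was compared between 5 and 4 reactor volume changes, to ask how near the cultures were to a steady transcript state and how much variation among replicates remained. The comparison used the 4 libraries labelled 0% oxygen at 5 volume changes and the 4 labelled 0% oxygen at 4 volume changes, 8 of the 16 libraries of the series, chosen by their titles. All 16 were made from the wild-type strain CBS7435, labelled whole cells, and the other 2 groups were 30% oxygen at 5 volume changes and 0% oxygen at 0.4 volume changes. The study asked how oxygen supply affects redox state and stress, and its design sets every condition against every other. All groups shared glucose-limited continuous culture with temperature, pH and dilution rate held constant.

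The labels and the treatment protocol describe the groups differently. Libraries labelled 5 and 4 volume changes of 0% oxygen correspond in the protocol to 70 h and 50 h after a switch of the inlet gas to 8% oxygen, so the time between them was 20 h. The group labelled 30% oxygen corresponds to 66 h at 21% inlet oxygen before the switch, and the group labelled 0.4 volume changes to 5 h after it. At the stated dilution rate of 0.075 per h, 70 h and 50 h amount to 5.25 and 3.75 volume changes, and the generation time at that rate would be 9.24 h. With ideal mixing, 0.525% of the medium present at the switch would remain at 70 h and 2.35% at 50 h. The labels number the 4 biological replicates of each group, but do not say whether a number stands for 1 reactor followed over time, and p-values below measure only the spread between these libraries. Reactors of different sizes were in use, and the labels do not say which library came from which.

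Komagataella phaffii, long known as Pichia pastoris, is a methylotrophic yeast used to secrete recombinant proteins. In a chemostat, fresh medium enters at the rate at which culture is withdrawn, so the inflow sets the growth rate and the limiting nutrient sets the biomass. After a change in conditions the culture relaxes to a new state while the old medium and the old cells are washed out, and several volume changes are usually allowed to pass before a culture is treated as steady. When oxygen becomes scarce in such glucose-limited cultures, this yeast is known to shift from full respiration to mixed respiration and fermentation, with changes in glycolytic, sterol and heme synthesis transcripts.

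Each deposited table listed 5564 features, whose identifiers end in t (with lengths typical of coding sequences) or in r. The tables do not pair the identifiers with gene names, and 0 of the 5040 genes of the reference table could be matched to one. Features are therefore described by identifier, chromosome, length and level, without function, and planned lists of pathway genes could not be applied. Library totals ran from 23085262 to 40549356 estimated counts at 5 volume changes and from 30205207 to 33473609 at 4 volume changes. Levels are CPM values, counts scaled to a common library total and adjusted by TMM factors, so each is a share of its library, and fewer cells with a transcript and less of it per cell cannot be told apart. Replicate 4 at 5 volume changes stood apart in r features and replicate 2 at 4 volume changes in the t features as a whole, both described further on.

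Most transcripts differed little between 5 and 4 volume changes. The median absolute log2 fold change over 5452 tested features was 0.11, which is 1.08-fold, and 95% of features lay within 0.39 on the log2 scale. In edgeR's quasi-likelihood test, 35 features were called at a Benjamini-Hochberg adjusted p under 0.05, a share of 0.642% of those tested. Of these, 25 were higher at 5 volume changes (0.459%) and 10 were lower (0.183%), and 0 (0%) had changed by 2-fold or more. The called differences were 1.26-fold to 1.92-fold in size. Without adjustment, 668 features (12.3%) had a p under 0.05.

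The number called rested on the model. With only the 8 libraries at 5 and 4 volume changes in the fit, 0 features were called by edgeR, with 438 at an unadjusted p under 0.05, while DESeq2 on all 16 libraries called 113, limma-voom with sample quality weights 63 and limma on log2(TPM + 1) 5. Leaving out 1 library at a time gave 16 to 41 called features, and the number fell below 21 without replicate 3 (19) or replicate 4 (16) at 5 volume changes and without replicate 3 (20) or replicate 4 (19) at 4 volume changes.

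A missed threshold does not show that a level stayed the same, so features were also counted whose difference was bounded. A feature counted as bounded within 1.5-fold when both a rise and a fall beyond 1.5-fold were rejected, with adjusted p under 0.05 in edgeR's fit. By this measure 4794 features (87.9%) were bounded within 1.5-fold at 5 against 4 volume changes, and 5314 (97.5%) within 2-fold. The same counts for 4 against 0.4 volume changes, a step of 45 h, were 3417 (62.7%) and 4819 (88.4%). Of the 35 called features, 12 were also bounded within 1.5-fold, so their difference was both detected and small. Another 134 features were neither called nor bounded within 2-fold, and most of these were rarely counted: their median was 36.1 counts per library, against 2357 over all features tested.

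Rarely counted transcripts were bounded less often than others. When the features were split by mean count into 4 classes of equal size, the lowest class had a median of 592 counts: 69.4% of it was bounded within 1.5-fold and 0 were called. In the next 3 classes, with medians of 1645, 3476 and 9459 counts, 93.8%, 96.3% and 92.2% were bounded and 6, 9 and 20 were called. The called features averaged between 39.6 and 1016 CPM, with a median of 172 CPM against 70.6 CPM over all features tested.

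The 2 features with the most counts in the 8 libraries were not called. PP7435_Chr4-0952.t01, of 1023 nt on chromosome 4, stood at 16284, 23074, 16304 and 18150 CPM at 5 volume changes and at 17994, 23244, 19145 and 20447 CPM at 4 volume changes. Its values overlapped between the groups, replicate 2 was the highest in both, and its log2 fold change was -0.13 ± 0.18 (SE). PP7435_Chr3-0552.t01, of 1038 nt on chromosome 3, stood at 12424, 22210, 15993 and 13208 CPM at 5 volume changes and at 13767, 23835, 15648 and 17556 CPM at 4 volume changes. It overlapped in the same way, again with replicate 2 on top in both groups, and its log2 fold change was -0.15 ± 0.23 (SE). Both counted as bounded within 1.5-fold, with adjusted p of the bound of 0.0136 for the first and 0.0438 for the other in edgeR's fit. The bound of the other was thus near the limit of 0.05. For a difference, edgeR's adjusted p was 0.83 for the first and 0.85 for the other.

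The largest called rise with separated groups was that of PP7435_Chr3-1011.t01, of 1248 nt on chromosome 3. It measured 393, 428, 431 and 585 CPM at 5 volume changes, against 256, 292, 239 and 254 CPM at 4 volume changes. The groups did not overlap, and replicate 4 at 5 volume changes was the highest of the 8. The means were 459 ± 85.4 and 260 ± 22.6 CPM (SD, n = 4 each). Its log2 fold change was 0.82 ± 0.14 (SE; 95% interval 0.53 to 1.11), with an adjusted p of 0.0107 in edgeR. Across the time course its mean was 666 CPM at 30% oxygen, 867 CPM at 0.4 volume changes, 260 CPM at 4 and 459 CPM at 5, so it was lowest at 4 volume changes.

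PP7435_Chr4-0877.t01, of 1263 nt on chromosome 4, was the other named rise. It measured 216, 228, 212 and 334 CPM at 5 volume changes, against 152, 171, 134 and 128 CPM at 4 volume changes. The groups did not overlap, and replicate 4 again lay well above the other 3 libraries at 5 volume changes, which spanned only 212 to 228 CPM. The log2 fold change was 0.76 ± 0.14 (SE), with an adjusted p of 0.016 in edgeR. Without replicate 3 or 4 at 4 volume changes the adjusted p in edgeR was 0.0581 or 0.0519, so this call depended on both libraries. Without replicate 4 at 5 volume changes the log2 fold change was 0.58, with an adjusted p of 0.0423 in edgeR.

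Among the falls, PP7435_Chr4-0279.t01, of 750 nt on chromosome 4, measured 269, 251, 192 and 220 CPM at 5 volume changes, against 534, 314, 349 and 435 CPM at 4 volume changes. Every library at 5 volume changes lay below every library at 4, where replicate 1 was by far the highest. The log2 fold change was -0.81 ± 0.15 (SE; 95% interval -1.13 to -0.48), with an adjusted p of 0.0178 in edgeR. Without replicate 3 or 4 at 5 volume changes, or replicate 1 or 4 at 4 volume changes, its adjusted p in edgeR lay between 0.0519 and 0.0723, so this call depended on those 4 libraries.

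PP7435_Chr1-0726.t01, of 534 nt on chromosome 1, measured 199, 203, 167 and 206 CPM at 5 volume changes, against 358, 324, 234 and 280 CPM at 4 volume changes. The groups were separate here too, and the libraries at 5 volume changes varied less. The log2 fold change was -0.63 ± 0.11 (SE), with an adjusted p of 0.0112 in edgeR. With only the 8 late libraries in the fit, the adjusted p of these 4 features in edgeR was between 0.142 and 0.168.

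**Figure D1:**
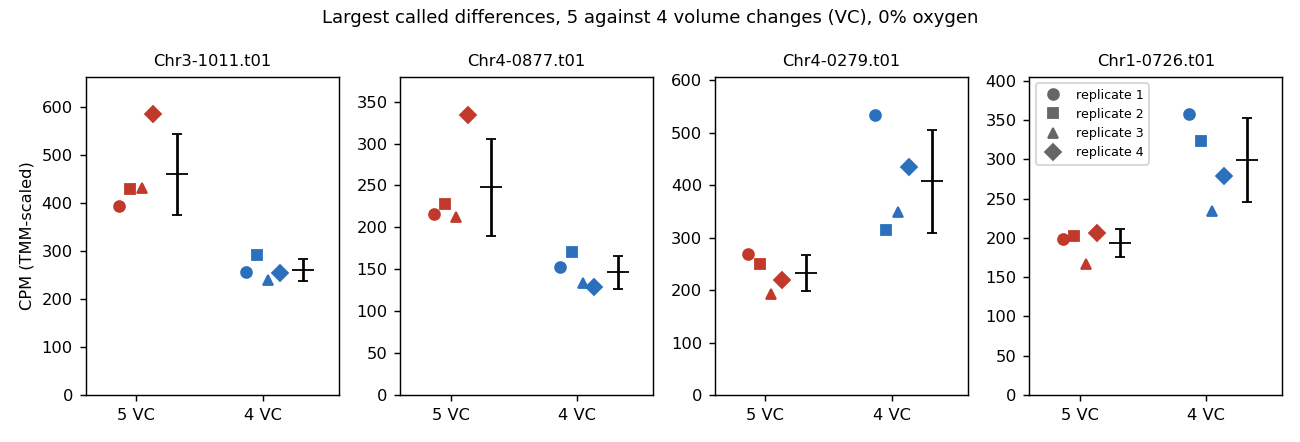
TMM-scaled CPM of the 2 largest separated rises and falls among called features, in each of the 4 libraries at 5 (red) and 4 (blue) volume changes, with the mean and SD in black. All 4 values of one group lie above all 4 of the other in each panel, and replicate 4 at 5 volume changes is highest in the first and second panels.

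The 35 called features were all t features of the 4 numbered chromosomes, with 7, 9, 9 and 10 on chromosomes 1 to 4. Those 4 chromosomes had shares of t features called of 0.423%, 0.663%, 0.697% and 0.954%. In 33 of the 35 the groups did not overlap, 24 higher and 9 lower at 5 volume changes. The calls were made on these same values, so such separation largely follows from them. Over all tested features, 2.6% had every library at 5 volume changes above every library at 4 and 3.12% had every library below.

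The plot of difference against spread shows where the called features lie. Features with |log2 fold change| of 1 or more numbered 26, of which 8 were t features outside the mitochondrial chromosome, and 0 of the 26 were called in edgeR.

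**Figure D2:**
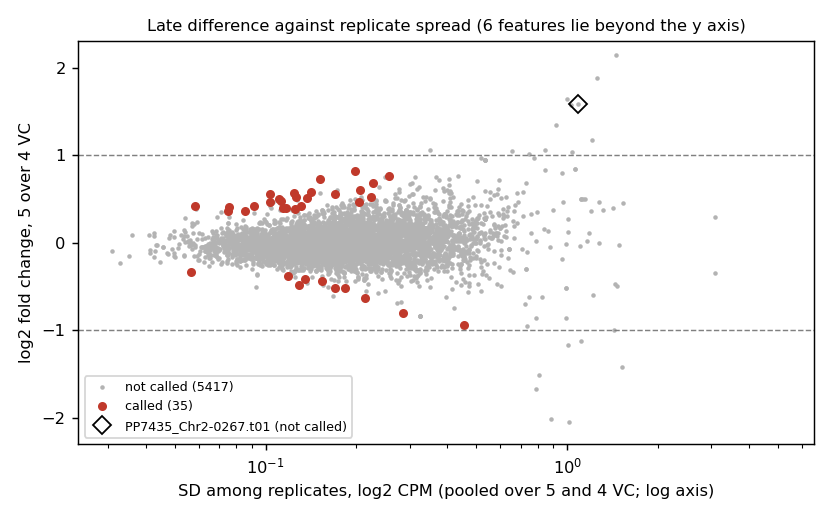
Log2 fold change of 5 over 4 volume changes against the SD of log2 CPM among replicates (log axis, pooled over both groups) for 5452 features, with 35 called ones in red. Called features lie between the dashed 2-fold lines, at low to moderate spread, while points beyond 2-fold lie at the right, where replicates spread most.

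The preceding step was larger than the last one. In edgeR, 1900 features (34.8%) were called at 4 against 0.4 volume changes, 265 of them (4.86%) with 2-fold changes or more, and the median absolute log2 fold change was 0.23. The comparison with 5 volume changes shares the libraries at 4 volume changes, so the 2 counts are not independent. The difference between the steps was tested directly, as the log2 change from 4 to 5 minus that from 0.4 to 4 volume changes. It was called for 1097 features (20.1%), of which 1081 were also called at 4 against 0.4 volume changes. In 1062 of the 1097 the change from 0.4 to 4 volume changes was the larger in size, against 35 where the later change was. These calls largely follow the earlier step, so that count is a description. Over all 5452 features tested, the earlier change was the larger in 4045. The contrast compares signed changes, so a reversal of equal size would also be called. The first step covered 45 h and the last one 20 h, and time and stage cannot be told apart in this contrast.

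The features called between 5 and 4 volume changes had moved before. Because they were chosen on the libraries at 5 and 4 volume changes, their levels at those points are a description, and a feature chosen for being low at 4 volume changes is low there in every comparison that uses these libraries. Relative to the mean at 30% oxygen, the median log2 level of the 25 higher features was 0.21 to 0.26 in the 4 libraries at 0.4 volume changes, -0.52 to -0.47 at 4 and -0.09 to 0.14 at 5. Their median log2 fold change at 5 volume changes against 30% oxygen was 0.02, ranging from -2.12 to 0.66 among features, and 19 of the 25 were bounded within 1.5-fold of 30% oxygen, against 53.5% of all features. Against 30% oxygen, 3 of the 25 were called higher and 6 lower in edgeR at 5 volume changes, beside 23.3% and 22.5% of all features, and a feature can be both called and bounded. The median was lower at 4 volume changes than at either neighbouring time, and single features differed widely.

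By the median, the 10 lower features ran the other way. From 0.4 to 4 volume changes, 9 of the 10 had a positive log2 fold change. PP7435_Chr1-0726.t01 instead fell at both steps, with means of 592 CPM at 0.4 volume changes, 299 CPM at 4 and 194 CPM at 5. Relative to 30% oxygen the median log2 level of the 10 was 0.42 to 0.64 in the libraries at 0.4 volume changes, 1.02 to 1.30 at 4 and 0.53 to 0.73 at 5. Their median log2 fold change against 30% oxygen was 0.64 at 5 volume changes, with a range from -0.73 to 2.84. In that comparison 7 of the 10 were called higher and 3 lower in edgeR, beside 23.3% and 22.5% of all features. Of the 10, 3 were bounded within 1.5-fold, against 53.5% of all features. The 10 were chosen partly on the same libraries at 5 volume changes.

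**Figure D3:**
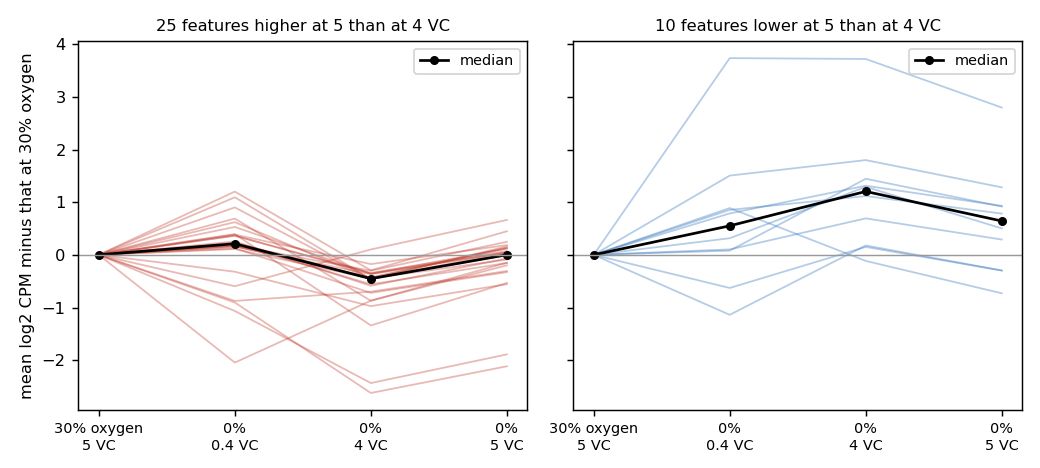
Mean log2 CPM minus that at 30% oxygen, for the 25 features higher (left) and the 10 lower (right) at 5 than at 4 volume changes, with the median in black. The median of the higher ones dips at 4 volume changes and lies near 0 at 5, and that of the lower ones peaks at 4 volume changes.

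A grouping that used none of the late libraries was also examined. Features called at 0.4 volume changes against 30% oxygen share no library with the comparison of 5 and 4 volume changes, although all groups share 1 fitted spread. The 1296 features (23.8%) called higher in that early comparison had a median log2 fold change of -0.01 at 5 against 4 volume changes, the 1310 (24%) called lower had -0.02, and the 2846 not called had 0.01. Of these 3 sets, 1.39%, 0.611% and 0.316% were called at 5 against 4 volume changes, beside 0.642% over all features, and 91.4%, 89.5% and 85.7% were bounded within 1.5-fold.

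Libraries from the 2 late groups lay about as far apart as replicates of the same group. Over 5353 t features outside the mitochondrial chromosome, the root mean square log2 CPM difference between a library at 5 and one at 4 volume changes averaged 0.353 in 16 pairs, with a range of 0.254 to 0.480. Between 2 libraries of the same group it averaged 0.327 at 5 volume changes (0.270 to 0.408) and 0.362 at 4 volume changes (0.230 to 0.472), in 6 pairs each. A library at 4 and one at 0.4 volume changes were 0.560 apart, with every one of those 16 pairs between 0.519 and 0.632. Between group means, the distance was 0.190 for 5 against 4 volume changes and 0.489 for 4 against 0.4. Distances between libraries and between group means both include replicate spread, so neither gives the late difference alone.

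**Figure D4:**
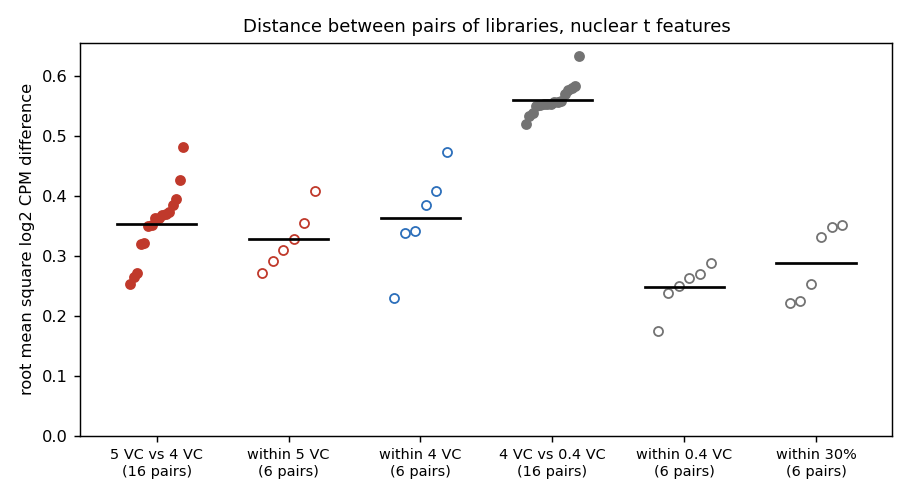
Root mean square log2 CPM difference over t features outside the mitochondrial chromosome for each pair of libraries, with the mean of each kind of pair as a line. Pairs across 5 and 4 volume changes (mean 0.353) overlap the pairs within either group, and pairs across 4 and 0.4 volume changes lie above all of them.

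Measured as variance of log2 CPM over 5243 t features with whole counts, 16.8% lay between the groups at 5 and 4 volume changes and 83.2% among replicates. A difference of 2 groups takes 1 of the 7 degrees of freedom among 8 libraries, which is 14.3%. For 4 and 0.4 volume changes the share between the groups was 64.2%. Distances from the mean at 0.4 volume changes were 0.473 to 0.499 for the libraries at 5 volume changes and 0.522 to 0.573 for those at 4, and distances from the mean at 30% oxygen were 0.760 to 0.810 and 0.794 to 0.838. All 4 libraries at 5 volume changes lay nearer to the mean at 0.4 volume changes than any library at 4, while the distances from 30% oxygen overlapped between the groups. Such distances include the deviation of each library from its own group. Between group means, the distance from 0.4 volume changes was 0.448 at 5 and 0.489 at 4, and this difference was not tested.

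Replicates varied more at the late low-oxygen points than earlier. The median SD of log2 CPM over the 5353 t features was 0.14 at 30% oxygen, 0.12 at 0.4 volume changes, 0.18 at 4 and 0.16 at 5. Counting error alone would give a median SD of about 0.03 in every group, below the spread seen. The sources of the rest were not tested. A range over the 4 replicates of more than 2-fold was found for 187 t features at 5 volume changes and 302 at 4, against 85 at 0.4 volume changes and 148 at 30% oxygen. Of these wide features 92 were wide at both late points, which is 49.2% of those at 5 and 30.5% of those at 4 volume changes. The spread at 4 volume changes was larger than at 5 for 3042 of the 5353 features. These differences in spread between groups were not tested.

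Single libraries carried much of that spread. Of the 187 wide features at 5 volume changes, replicates 1 to 4 were farthest from the group in 16, 34, 73 and 64. At 4 volume changes the numbers for replicates 1 to 4 were 46, 211, 15 and 30, so replicate 2 alone was the extreme library in most of the 302. Without replicate 2 at 4 volume changes, 41 features were called between 5 and 4 volume changes and 4614 were bounded within 1.5-fold. Over all omissions of 1 library the numbers ran from 16 to 41 called and from 4577 to 4706 bounded, so these values are not particular to that library.

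Much of the within-group variance ran along 1 axis. The first principal component of deviations from the group means held 50.0% of the within-group variance of the 8 libraries. Scores were -3.79, 0.91, 13.5 and -10.6 for replicates 1 to 4 at 5 volume changes. At 4 volume changes they were -3.96, -16.9, 8.52 and 12.4. Replicate 3 was high at both times and replicate 1 near the middle at both, while replicate 4 lay at opposite ends.

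Counts from mitochondrial t features moved with this axis. They made up 2.92%, 3.92%, 4.43% and 2.39% of the counts in replicates 1 to 4 at 5 volume changes. At 4 volume changes the shares were 2.38%, 2.31%, 3.90% and 4.93%. The libraries with scores above 8 held 3.90% or more, those with scores below -10 held 2.39% or less, and replicate 2 at 5 volume changes, near the middle of the axis, held 3.92%. The part of this share in the spread of other transcripts was not tested. The means were 3.41 ± 0.93% and 3.38 ± 1.27% (SD, n = 4 each), with p = 0.857 in a two-sided exact permutation test, and the sign of this small difference changed when single libraries were left out.

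**Figure D5:**
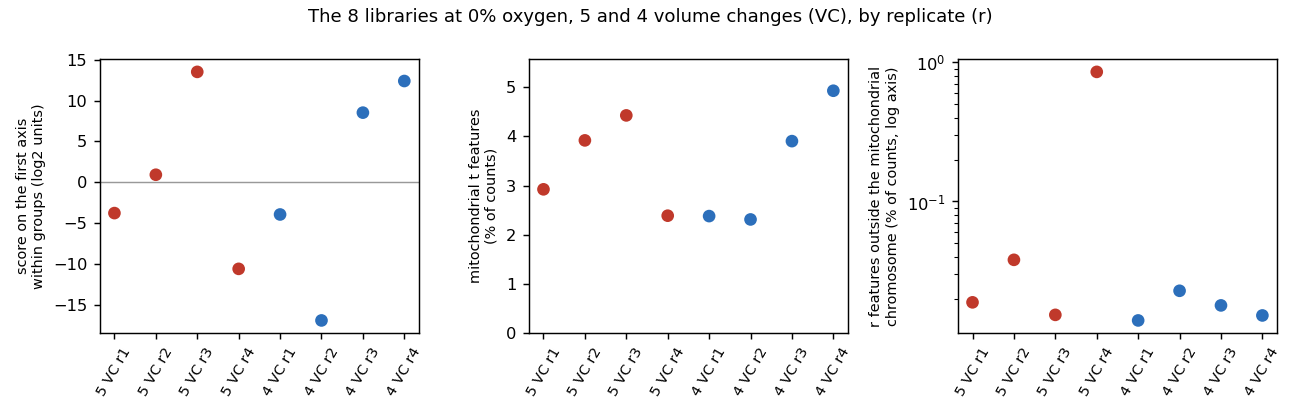
Score on the first within-group axis (log2 units), share of counts in mitochondrial t features and share in r features outside the mitochondrial chromosome (log axis), for replicates (r) 1 to 4 at 5 (red) and 4 (blue) volume changes. Scores and mitochondrial shares are high in replicate 3 at 5 and replicate 4 at 4 volume changes, and the r share of replicate 4 at 5 volume changes, 0.854%, lies above all others.

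Identifiers that contain Mit were taken as the mitochondrial chromosome. Of 16 t features on this chromosome, which encodes subunits of the respiratory chain and ATP synthase in yeasts, 15 were tested. Of the 15, 0 were called in edgeR and 0 had an unadjusted p under 0.05, beside 0.642% and 12.3% of all features, so a list of this size says little by its calls. Their log2 fold changes ranged from -0.34 to 0.72 with a median of -0.12, against a median of 0.00 over all features. Of the 15, 5 (33.3%) were bounded within 1.5-fold, against 87.9% of all features, and 14 within 2-fold. Their replicate spread was wide: the median SD of log2 CPM was 0.44 at 5 volume changes and 0.53 at 4. Their median deviations from the group mean were -0.18, 0.33, 0.39 and -0.53 for replicates 1 to 4 at 5 volume changes and -0.49, -0.35, 0.28 and 0.57 at 4.

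The r features form lists in which few calls would be made at the share of 0.642% over all features, so their calls say little either. Of 33 r features on the mitochondrial chromosome, 24 were tested, 0 were called in edgeR, 3 had an unadjusted p under 0.05 and 0 were bounded within 1.5-fold. Of 145 r features of up to 120 nt on the numbered chromosomes, 52 were tested, 0 were called, 0 had an unadjusted p under 0.05, 0 were bounded within 1.5-fold and 13 were bounded within 2-fold. The 10 most counted features took 10.7 ± 1.37% of counts at 5 volume changes and 11.3 ± 1.20% at 4 (SD, n = 4 each; exact permutation p = 0.457).

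The 8 r features longer than 1000 nt had 1 library far above the rest. Their log2 fold changes ran from 1.88 to 11.6, 8 of 8 had an unadjusted p under 0.05 in edgeR, and 0 were called. The share of counts in all r features outside the mitochondrial chromosome was 0.0188%, 0.0381%, 0.0153% and 0.854% at 5 volume changes, against 0.0140%, 0.0228%, 0.0179% and 0.0152% at 4. Only replicate 4 at 5 volume changes stood apart. The means were 0.231 ± 0.415% and 0.0175 ± 0.00393% (SD, n = 4 each), with p = 0.2 in the exact permutation test, and without that library the difference of the means was 0.00661 percentage points. With 4 libraries against 4, the smallest p such a test can give is 0.0286, and p-values of the 3 shares adjusted by the Benjamini-Hochberg method were 0.857 (mitochondrial), 0.6 (r features) and 0.686 (10 most counted).

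The 2 features of widest replicate spread at 5 volume changes belong to that set. PP7435_Chr1-1592.r01 and PP7435_Chr2-1303.r01, each of 1583 nt, belong to 4 features that carry identical values in every library and are not whole numbers in most, so reads appear to be divided among copies and the level of a single copy is uncertain. The CPM of the 4 copies together was 1.33, 43.3, 3.10 and 3982 at 5 volume changes, against 2.25, 21.7, 5.84 and 5.64 at 4. Replicate 2 was raised at both times and replicate 4 at 5 volume changes was far above all others. In edgeR the adjusted p of each copy was 0.0968.

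The 2 of widest spread at 4 volume changes, PP7435_Chr2-1495.t01 (594 nt) and PP7435_Chr2-1484.t01 (633 nt), also appear to divide shared reads, since their counts were fractional in most libraries while their sum was whole. The first had 2.49, 0.90, 2.60 and 0 CPM at 5 volume changes and 5.44, 0, 0 and 2.19 CPM at 4. The other had 0, 5.19, 4.04 and 4.18 CPM at 5 volume changes and 0, 3.59, 4.01 and 3.19 CPM at 4. Their sum was steadier, at 2.49, 6.09, 6.64 and 4.18 CPM at 5 volume changes and 5.44, 3.59, 4.01 and 5.39 CPM at 4. It still ran from 2.49 to 6.64 CPM at 5 volume changes, and the part of read division in the spread was not tested.

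Among t features with whole counts, PP7435_Chr2-0267.t01, of 2394 nt on chromosome 2 and chosen after its values were seen, had the widest spread at 5 volume changes and the next to widest at 4. It measured 95.2, 509, 214 and 216 CPM at 5 volume changes, against 29.1, 173, 101 and 40.6 CPM at 4. The groups overlapped, although replicate 1 was lowest and replicate 2 highest in both. The log2 fold change of 1.59 ± 0.48 (SE; 95% interval 0.58 to 2.60) had an adjusted p of 0.158 in edgeR. At 0.4 volume changes the same feature was at 578, 499, 514 and 715 CPM and at 30% oxygen at 71.5, 129, 139 and 106 CPM, with an SD of 0.24 and 0.43 on the log2 scale, so its replicates were closer together at both earlier points.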

How the data were processed

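Per the labels' protocols, ribosomal RNA was depleted and directional libraries were made from total RNA. The tools named in the submitters' processing notes are kallisto 0.44.0, Bowtie2 2.3.4.1, SAMtools 1.9, cutadapt 1.18, DESeq2 1.36.0 and R 4.2.0, with no roles. The sources used here give no genome build or annotation and do not say whether counting used strand, so overlapping and antisense features cannot be told apart. Per the file headers, the deposited tables hold, for every feature, its length and effective length beside an estimated count and a TPM value. The deposited estimated counts are not normalised, and 218 features had a value more than 1e-06 from a whole number in at least 1 library. The deposited TPM values were used only in alternatives.

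Estimated counts were rounded to whole numbers, filterByExpr removed 112 rarely counted features, and the other 5452 were fitted in edgeR 4.0.16 (R 4.3.3) with TMM factors and 1 mean per group over all 16 libraries. P-values of glmQLFTest were adjusted by the Benjamini-Hochberg method over all features tested, and the limit was 0.05. Bounds came from a pair of one-sided tests per feature on the same fit. Distances, SDs and principal components used log2 CPM with a prior count of 2. CPM values are TMM-scaled. Shares were compared by two-sided exact permutation over 70 labelings. The fitted biological coefficient of variation was 0.149. No 2 replicates agreed within sampling noise: chi-square divided by its degrees of freedom was 45.2 or more. The script was tested on simulated counts.

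Named features were the 2 largest rises and falls among called features with at least 50 counts on average and separated groups, the 2 with the widest spread within each group among those with at least 50 counts in both, and the 2 with the most counts. The comparison, the lists and the rule were chosen with earlier results of these data known. Alternatives were RLE and upper-quartile factors, other filters, no r features, a replicate block, the 8 late libraries alone, 1 library left out at a time, DESeq2 1.42.0, limma 3.58.1 with voom and sample weights, and limma on log2(TPM + 1) and log2(TPM + 0.1). Leaving out both libraries farthest from their group was added after seeing the data. Columns other than these were not used.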

Additional observations from a re-analysis of the deposited data

Results flagged for a closer look

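In replicate 4 at 5 volume changes, 0.854% of counts (0.8535 before rounding) fell in r features outside the mitochondrial chromosome, against 0.0153% to 0.0381% in the other 3 libraries of the group. In the same library PP7435_Chr1-1592.r01 and PP7435_Chr2-1303.r01, 2 of the 4 copies with identical values, each stood at 995.6 CPM, against 0.332 to 10.8 CPM in the other 3. PP7435_Chr4-0877.t01 stood at 334.5 CPM there, against 212 to 228 CPM in the other 3. All 4 values come from that library, and were singled out by Dixon's criterion for an outlying sample among 4. It was applied to 36 sets of 4 values and marked 4. Chance would mark about 1 in 20 sets, or 1.8, if the sets were separate and not chosen on their values. They were not separate: 3 of the 4 marks are the 2 identical copies and the r share that contains them. The copies were also named for their spread, and PP7435_Chr4-0877.t01 for its change, on these same values. The chance rate therefore does not hold for named features, and their marks are a description.

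The change from 4 to 5 volume changes differed from that from 0.4 to 4 in 1097 features by the test of the difference (edgeR, adjusted p under 0.05). On the log2 scale, the later change minus the earlier one was 2.56 for PP7435_Chr3-1011.t01, 2.25 for PP7435_Chr4-0877.t01, -1.81 for PP7435_Chr4-0279.t01 and 4.34 for PP7435_Chr2-0267.t01. PP7435_Chr2-0267.t01 was chosen after its values were seen. The others were named for a large called change from 4 to 5 volume changes, which is part of this difference. The sizes given are therefore a description. Both changes use the libraries at 4 volume changes, so an extreme level there enters both with opposite sign, and the part of this in the differences was not tested.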

How the results depend on the processing

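Of 35 features called at 5 against 4 volume changes, the number was 0 with only the 8 late libraries, 1 with these and a replicate block, 18 without both libraries farthest from their group, 113 with DESeq2, 63 with limma-voom and sample weights, and 5 with limma on log2(TPM + 1) or log2(TPM + 0.1). It ran from 16 to 41 with 1 library left out. The labels do not say that a number is 1 culture followed over time, so the numbers were not taken as pairs. Deviations of same-numbered libraries from their group means had correlations of 0.41, 0.18, 0.42 and -0.20 for numbers 1 to 4. With so few libraries these values cannot settle whether the numbers are pairs. With a replicate block on 16 libraries 29 were called, 27 of them among the 35. All 35 were also called with RLE or upper-quartile factors, other filters, without r features and with DESeq2. The share of higher calls was 71.4%, against 60% on TPM, 61.1% with DESeq2 and 82.5% with limma-voom. Leaving out replicate 3 at 5 volume changes gave 18 higher and 1 lower calls (94.7% higher), leaving out replicate 4 there gave 14 and 2 (87.5%), and leaving out replicate 1 of the group at 4 gave 25 and 3 (89.3%), against 25 and 10. The number bounded within 1.5-fold stayed between 4577 and 4877 in all 21 alternatives. The number whose late and preceding changes differed was 1652 with limma-voom, against 1097. The difference in mitochondrial share, 0.03 percentage points, ran from -0.323 to 0.550 with 1 library left out, and was 1.32 points of TPM (exact permutation p = 0.457). It was negative without replicate 2 (-0.135) or 3 (-0.304) at 5 volume changes and replicate 1 (-0.301) or 2 (-0.323) at 4. The difference in the share of the 10 most counted features was -0.68 points of counts and 0.61 points of TPM. The causes were not tested. The 4 named changes kept their sign in all alternatives, with adjusted p up to 0.315. In the lowest class by mean count, the median SD from counting alone was 0.06. The median SD among replicates there was 0.23 at 5 volume changes and 0.25 at 4.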

Other observations

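Called features were longer at the median, although single ones were as short as 534 nt. The median length was 2016 nt for the 25 features higher at 5 volume changes and 1554 nt for the 10 lower ones, against 1155 nt over all features tested. Deviations of single libraries from their group mean also varied with length across the 5353 t features outside the mitochondrial chromosome. Spearman's rho was 0.07, -0.05, 0.22 and -0.24 for replicates 1 to 4 at 5 volume changes and -0.09, -0.01, 0.22 and -0.08 at 4, as a description over features that share a library. The difference between listed and effective length was 230 to 242 nt at 5 volume changes and 227 to 251 nt at 4, so the groups overlapped in this measure. The part of length in the calls was not tested.

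Libraries with the same number lay 0.330 apart on average between 5 and 4 volume changes (root mean square log2 CPM difference, 4 pairs), and libraries with other numbers 0.361 apart (12 pairs). All 25 higher and all 10 lower features had the direction of their call in each of the 4 same-numbered differences, which were among the values used to call them.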
